A study of Mus musculus with 4 samples.

Results

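Among 55401 genes measured in mouse optic nerves, 6 genes known for the anterior pituitary were described: the hormone genes Cga, Gh and Pomc, the transcription factor genes Lhx3 and Pitx1, and the epithelial adhesion gene Epcam. They were chosen because their reads lay almost wholly in the Dor WT libraries, so every difference between Dor cKO and Dor WT in these 6 genes is a description and carries no test. That description held for Cga, Gh, Lhx3 and Pitx1, which had 0 to 3 counts in each Dor cKO library. It did not hold for Pomc and Epcam, which kept 25.4% and 30.3% of their Dor WT level in Dor cKO. The level left is the summed count per TMM-scaled library size, where TMM is the scaling of edgeR.

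RNA was taken from the optic nerves of 2 samples with the genotype label Dor cKO and 2 with the label Dor WT, and poly(A) RNA was sequenced with a stranded kit. Dor is an alias of Trp53inp2, a gene for a nuclear protein with a role in autophagy, and cKO stands for a conditional knockout. The labels give neither the Cre driver nor the cell type in which the gene was deleted, and no strain, age, sex or batch, so such differences between the groups cannot be told apart from genotype. A tag that looks like a postnatal age stands in the names of both Dor WT tables and in neither name for Dor cKO. The labels do not explain it, so every comparison here may be between animals of different ages, which could not be checked. Nothing says whether a library came from 1 animal or from pooled animals, nor that the 2 libraries of a group came from separate animals, so p-values measure only the spread between these libraries.

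Total counts were 20928332 to 21162594 in the Dor cKO libraries and 17263830 to 21595832 in the Dor WT libraries, and a floor of 3 counts corresponded to 0.139 to 0.174 CPM, the count scaled to library size. Trp53inp2 stood at 105 and 107 CPM in the Dor cKO libraries, against 138 and 134 CPM in the Dor WT libraries, a log2 difference of -0.36 (SE 0.04, edgeR quasi-likelihood test with Benjamini-Hochberg adjustment, adjusted p = 2.73e-08). The defining markers of optic nerve glia were present in all 4 libraries. Mbp, a structural myelin protein gene, had 8654 and 8581 TPM, a level per transcript length, in the Dor cKO libraries, against 14829 and 14678 TPM in the Dor WT libraries. Gfap, the astrocyte filament gene, had 6123 and 6137 TPM in the Dor cKO libraries, against 5804 and 5789 TPM in the Dor WT libraries.

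The anterior pituitary is an endocrine gland that develops from an epithelial pouch of the oral roof and lies at the base of the skull, under the hypothalamus and close behind the optic chiasm. Each of its endocrine cell types is known by the hormone it makes, and the homeodomain factors Pitx1 and Lhx3 act early in its development, before those cell types separate. The glycoprotein hormones of the gland are dimers of the common alpha subunit, encoded by Cga, and a beta subunit that gives each hormone its identity. The optic nerve holds axons of retinal ganglion cells, glia, vessels and meningeal sheath.

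Promoter sequences of Cga and Pomc are shown because these were the hormone gene with no reads in Dor cKO and the hormone gene that kept reads there. RefSeq promoter entries on GRCm38.p6 were found for 4 of the 6 genes, with 1 entry each for Cga, Pomc and Epcam and a pair for Lhx3. Gh and Pitx1 are named only. Both sequences run 5′ to 3′ on the plus strand over the 250 bases before the RefSeq gene start, at chr4:34893529-34893778 for Cga and at chr12:3954695-3954944 for Pomc. Capitals mark TAATTA, a core recognised by LIM and other homeodomain factors, and TATAAA, the TATA box.
Cga: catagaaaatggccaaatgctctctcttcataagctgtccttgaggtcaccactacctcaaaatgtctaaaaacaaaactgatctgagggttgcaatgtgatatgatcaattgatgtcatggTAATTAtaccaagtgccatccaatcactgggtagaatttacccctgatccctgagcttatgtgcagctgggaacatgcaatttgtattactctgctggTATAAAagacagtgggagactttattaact
Pomc: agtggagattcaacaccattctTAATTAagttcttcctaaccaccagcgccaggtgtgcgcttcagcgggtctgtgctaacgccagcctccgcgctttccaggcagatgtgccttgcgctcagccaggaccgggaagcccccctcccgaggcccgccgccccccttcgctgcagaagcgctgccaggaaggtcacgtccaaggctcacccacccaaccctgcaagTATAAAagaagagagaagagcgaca
The letter strings searched on both strands were TAATCC, of the bicoid type bound by Pitx factors, TAATTA and TATAAA, and the matches shared no bases. The Cga promoter held TAATTA at 128 to 123 bases and TATAAA at 30 to 25 bases before the start. The Pomc promoter held TAATTA at 228 to 223 bases and TATAAA at 25 to 20 bases before the start. Of the 32851 promoters in the table, 4.84% held TAATTA, 12.4% held TATAAA and 6.25% held TAATCC in the same 250 bases. No TAATCC was found in the promoters of Cga, Pomc, Epcam or Lhx3. These matches describe the letters of the sequence and say nothing about binding in these samples.

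**Figure D1:**
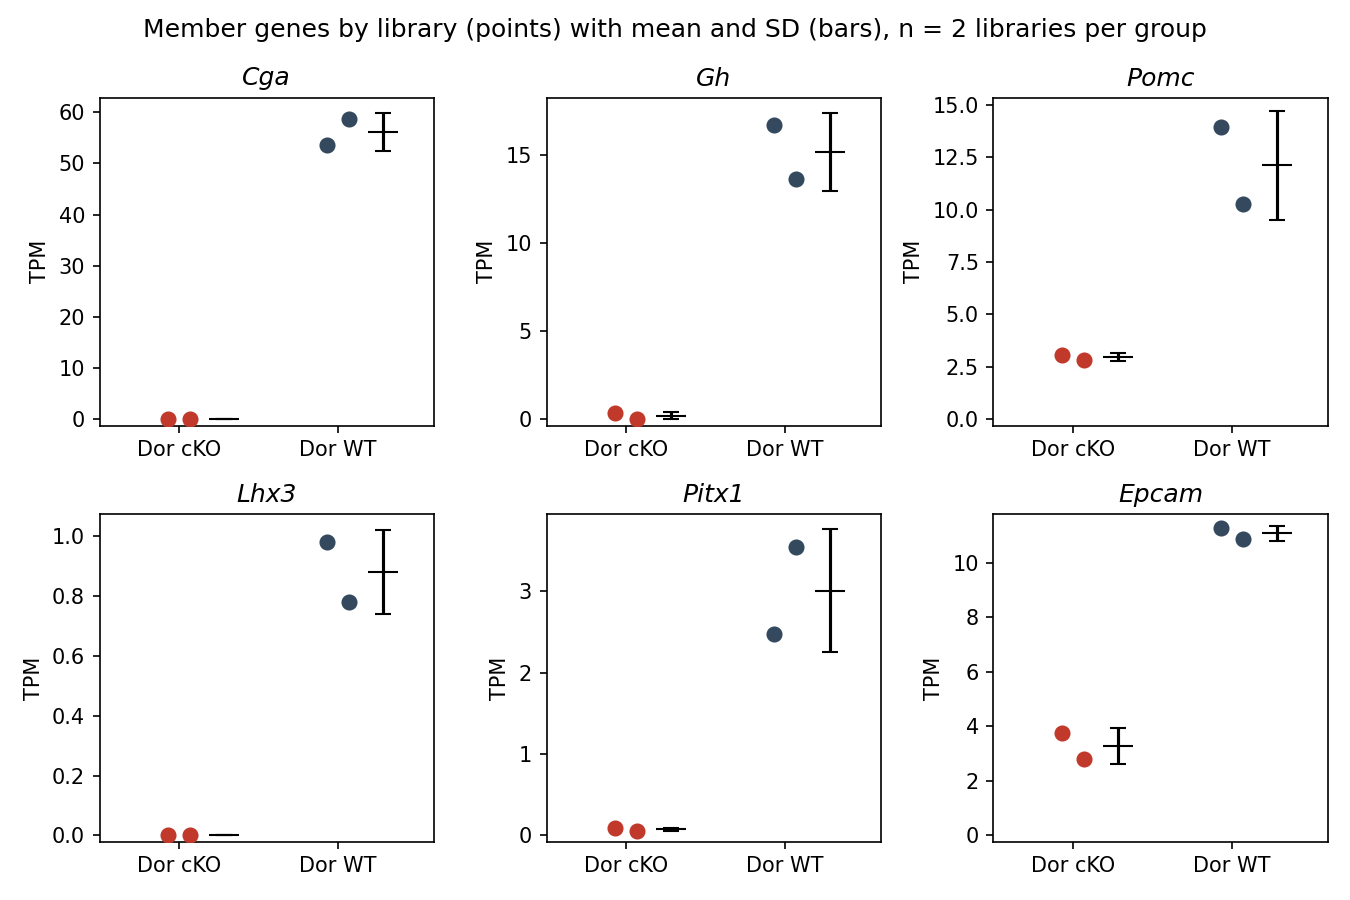
Level of each of the 6 genes in TPM (vertical axis, linear, its own scale per gene) in each library of Dor cKO (red points) and Dor WT (dark points), with the mean and SD of the 2 libraries as a bar beside them. Cga and Lhx3 are at 0 in both Dor cKO libraries, and Pomc and Epcam stay above 2 TPM there.

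Cga, the shared alpha subunit of thyrotropin, luteinising hormone and follicle-stimulating hormone, was the most abundant of the 6 genes per length. It had 0 and 0 counts in the Dor cKO libraries, against 275 and 376 counts in the Dor WT libraries, at chr4:34893779-34907370 on the plus strand of GRCm38. Its level was 0 TPM in both Dor cKO libraries and 56.1 ± 3.64 TPM in Dor WT (SD, n = 2 libraries). With both Dor cKO libraries set at the floor of 3 counts each, Cga was at least 115-fold lower in Dor cKO than in Dor WT. In bulk RNA, fewer cells of a type and less RNA per cell cannot be told apart, here or in the results that follow. The mean transcript length of Cga in both Dor WT libraries was 687 bases, which is the length of the protein-coding transcript Cga-201.

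Gh, the growth hormone gene, had 3 and 0 counts in the Dor cKO libraries, against 121 and 123 counts in the Dor WT libraries. This was 0.33 and 0 TPM in the Dor cKO libraries, against 16.7 and 13.6 TPM in the Dor WT libraries. The gene lies at chr11:106300271-106301865 on the minus strand, and no annotated gene overlaps it. The Dor cKO level was 1.15% of the Dor WT level, with a 95% exact interval of 0.236% to 3.40%. Such intervals cover counting error only, and all 3 of the Dor cKO counts came from replicate 1. The ratio of Cga to Gh in TPM was 3.20 in Dor WT 1 and 4.31 in Dor WT 2.

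Pomc encodes the precursor of corticotropin, melanocyte-stimulating hormone and beta-endorphin, and is used both by pituitary corticotrophs and melanotrophs and by neurons of the arcuate nucleus of the hypothalamus. It had 33 and 32 counts in the Dor cKO libraries, against 126 and 114 counts in the Dor WT libraries. The levels were 3.09 and 2.82 TPM in the Dor cKO libraries, against 13.97 and 10.28 TPM in the Dor WT libraries. Both Dor cKO libraries lay below both Dor WT libraries, and the 2 Dor cKO libraries lay closer together than those of Dor WT. Pomc, at chr12:3954951-3960642 on the plus strand, stood at 25.4% of its Dor WT level in Dor cKO (95% exact interval 19.0% to 33.5%), a log2 difference of -1.99 (SE 0.26). Its mean transcript length was 977 and 1031 bases in the Dor cKO libraries and 1011 and 1000 bases in the Dor WT libraries, values that lie between the lengths of the transcripts Pomc-202 and Pomc-201.

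Prolactin and the gonadotropin beta subunits were at or near the limit of counting in all 4 libraries. These genes are named because they complete the hormone set, whatever their values. Fshb, of follicle-stimulating hormone, had 0 and 0 counts in the Dor cKO libraries, against 5 and 5 counts in the Dor WT libraries. Prl, prolactin, had 0 and 0 counts in Dor cKO, against 2 and 0 counts in Dor WT. Lhb, of luteinising hormone, had 2 and 0 counts in Dor cKO, against 3 and 0 counts in Dor WT, and it overlaps the more abundant gene Ruvbl2 on the opposite strand. None of these 3 genes passed the filter on low counts, and all were under 1 TPM in every library.

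Tshb, the beta subunit of thyrotropin, passed the filter, and the transcripts behind its reads differed between the groups. It had 28 and 19 counts in the Dor cKO libraries, against 51 and 46 counts in the Dor WT libraries. Its log2 difference was -1.15 (SE 0.37, edgeR quasi-likelihood test with Benjamini-Hochberg adjustment, adjusted p = 0.0185). It did not pass under DESeq2 (adjusted p = 0.0594), nor with either Dor cKO replicate 2 or Dor WT replicate 1 left out (edgeR, log2 difference -0.91 and adjusted p = 0.176 in each case, the highest of 13 alternatives). The levels were 0.46 and 0.32 TPM in the Dor cKO libraries, against 5.33 and 1.85 TPM in the Dor WT libraries.

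RSEM lists for each gene a mean transcript length weighted by abundance, and for Tshb this value told its transcript classes apart. The mean length was 4396 bases in both Dor cKO libraries, which is the length of the retained-intron transcript Tshb-204, at chr3:102775465-102779860. In Dor cKO the reads were thus all assigned to that transcript, and the protein-coding transcripts, 476 to 605 bases long, stood at 0 TPM. In the Dor WT libraries the mean length was 1057 and 1917 bases. From these lengths the protein-coding transcripts held 4.54 to 4.69 TPM in Dor WT 1 and 1.17 to 1.21 TPM in Dor WT 2. The retained-intron transcript held 0.46 and 0.32 TPM in the Dor cKO libraries, against 0.64 to 0.79 TPM in Dor WT 1 and 0.64 to 0.68 TPM in Dor WT 2. The bounds come from the shortest and the longest coding transcript, and no test was made on them.

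**Figure D2:**
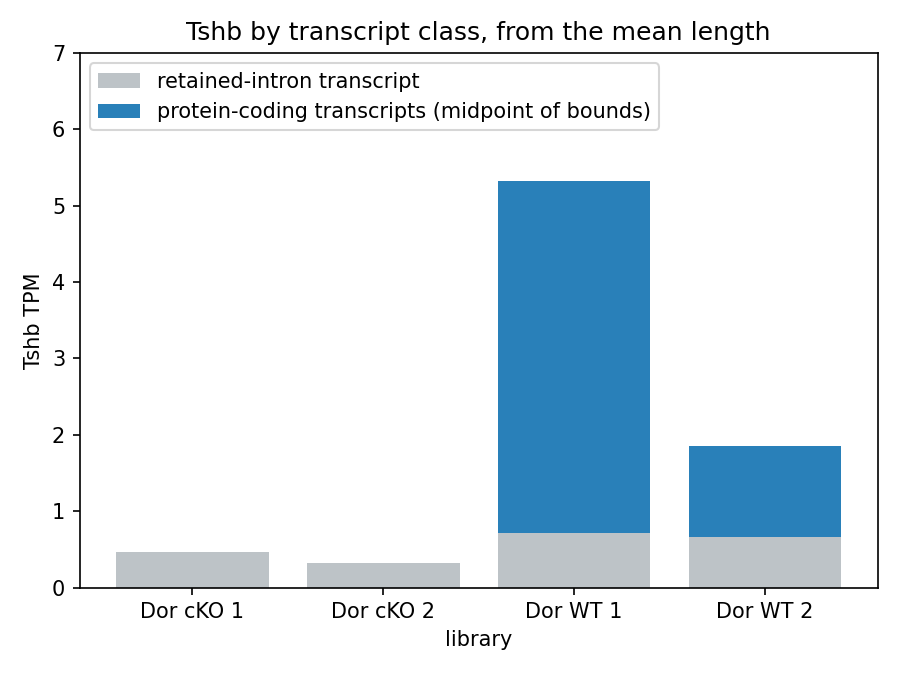
Tshb in TPM (vertical axis) in each library (horizontal axis), split by the mean transcript length into the retained-intron transcript (grey) and the protein-coding transcripts (blue, drawn at the midpoint of their bounds). The blue part is present in both Dor WT libraries and at 0 in both Dor cKO libraries.

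The whole of Tshb lies inside Tspan2, a tetraspanin gene of oligodendrocytes transcribed from the opposite strand. Tspan2 had 6761 and 6429 counts in the Dor cKO libraries, against 11006 and 14138 counts in the Dor WT libraries, a log2 difference of -1.02 (edgeR quasi-likelihood test with Benjamini-Hochberg adjustment, adjusted p = 1.13e-23). No source used here says whether the authors counted by strand, so reads of Tspan2 assigned to the retained-intron transcript of Tshb cannot be told apart from reads of Tshb. The part of Tspan2 in the Tshb difference was not tested.

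Lhx3 encodes a LIM homeodomain factor needed for the pituitary pouch to grow and for most of its endocrine cells to form. It had 0 and 0 counts in the Dor cKO libraries, against 23 and 23 counts in the Dor WT libraries. The level was 0 TPM in both Dor cKO libraries, against 0.98 and 0.78 TPM in the Dor WT libraries, the lowest among the 6 genes. Against the floor of 3 counts per library, Lhx3 was at least 8.3-fold lower in Dor cKO, a bound set by that floor and by its low counts. The gene lies at chr2:26200212-26208289 on the minus strand. Its mean length in Dor WT was 2223 bases, the length of the transcript Lhx3-201. The antisense gene Gm27196 overlaps it and had 0 to 4 counts in any library.

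Pitx1 encodes a paired-type homeodomain factor of the oral ectoderm, the pituitary and the hindlimb. It had 3 and 2 counts in the Dor cKO libraries, against 65 and 75 counts in the Dor WT libraries. The levels were 0.09 and 0.06 TPM in the Dor cKO libraries, against 2.47 and 3.54 TPM in the Dor WT libraries. The gene, at chr13:55825051-55836192 on the minus strand, stood at 3.34% of its Dor WT level in Dor cKO, with a 95% exact interval of 1.07% to 7.99%. The mean length was 2451 bases, that of Pitx1-201, in both Dor cKO libraries and in Dor WT 1, and 1674 bases in Dor WT 2, where a shorter transcript also took reads. The TPM of Dor WT 2 was therefore above that of Dor WT 1, while its CPM was 0.923 times that of Dor WT 1 (95% exact interval 0.653 to 1.31). The gene Gm47071, which overlaps Pitx1 on the opposite strand, had 26 and 18 counts in the Dor cKO libraries, against 18 and 17 counts in the Dor WT libraries.

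Epcam encodes an adhesion molecule of simple epithelia, present in the pituitary epithelium and in many other epithelia. It had 82 and 61 counts in the Dor cKO libraries, against 198 and 244 counts in the Dor WT libraries. This was 3.75 and 2.82 TPM in the Dor cKO libraries, against 11.3 and 10.9 TPM in the Dor WT libraries. The gene, at chr17:87635979-87651129 on the plus strand, stood at 30.3% of its Dor WT level in Dor cKO (95% exact interval 24.9% to 36.7%), a log2 difference of -1.72 (SE 0.18). It was the gene of the 6 with the most reads left in Dor cKO. No annotated gene overlaps Epcam or Pomc.

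The groups did not overlap for any of the 6 genes, with both Dor cKO libraries below both Dor WT libraries in 6 of 6. Among the 16751 genes tested, 30.5% had Dor cKO below Dor WT without overlap, 30.2% had Dor cKO above Dor WT without overlap, and 13.4% were called lower by edgeR. By the fitted fold 4 of the 6 were at least 4-fold lower, against 0.281% of tested genes, and 0.203% of tested genes were at least 4-fold higher. Since the genes were chosen on this contrast, nothing is read from their count. All 6 passed the filter on low counts, Cga, Gh, Lhx3 and Pitx1 only through their reads in Dor WT. Together they held 121 and 95 counts in the Dor cKO libraries, against 808 and 955 counts in the Dor WT libraries. Their summed level was 7.26 and 5.70 TPM in the Dor cKO libraries, against 99.0 and 97.8 TPM in the Dor WT libraries, and Pomc and Epcam made up most of what was left in Dor cKO.

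By the level left in Dor cKO the 6 genes fell in the order Cga and Lhx3, both at 0, then Gh, Pitx1, Pomc and Epcam. The counting intervals of Gh and Pitx1 overlapped, and so did those of Pomc and Epcam. The intervals of Pitx1 and Pomc did not overlap, with 7.99% as the upper end for Pitx1 and 19.0% as the lower end for Pomc. By level in Dor WT, in TPM, the order was Cga, Gh, Pomc, Epcam, Pitx1 and Lhx3. In that order the Dor WT values of Gh and Pomc overlapped between libraries, and so did those of Pomc and Epcam.

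Both Dor WT libraries held the 6 genes at similar levels. The ratio of Dor WT 2 to Dor WT 1 in CPM was 1.09 for Cga (95% exact interval 0.933 to 1.28), 0.813 for Gh (0.627 to 1.05), 0.800 for Lhx3 (0.429 to 1.49) and 0.986 for Epcam (0.813 to 1.19). Pomc had a ratio of 0.724, and it was the gene of the 6 whose interval, 0.556 to 0.939, lay below 1. Reads of all 6 genes were thus present in both Dor WT libraries. The genes were chosen for their reads in these same libraries, so this is a description and not a test.

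**Figure D3:**
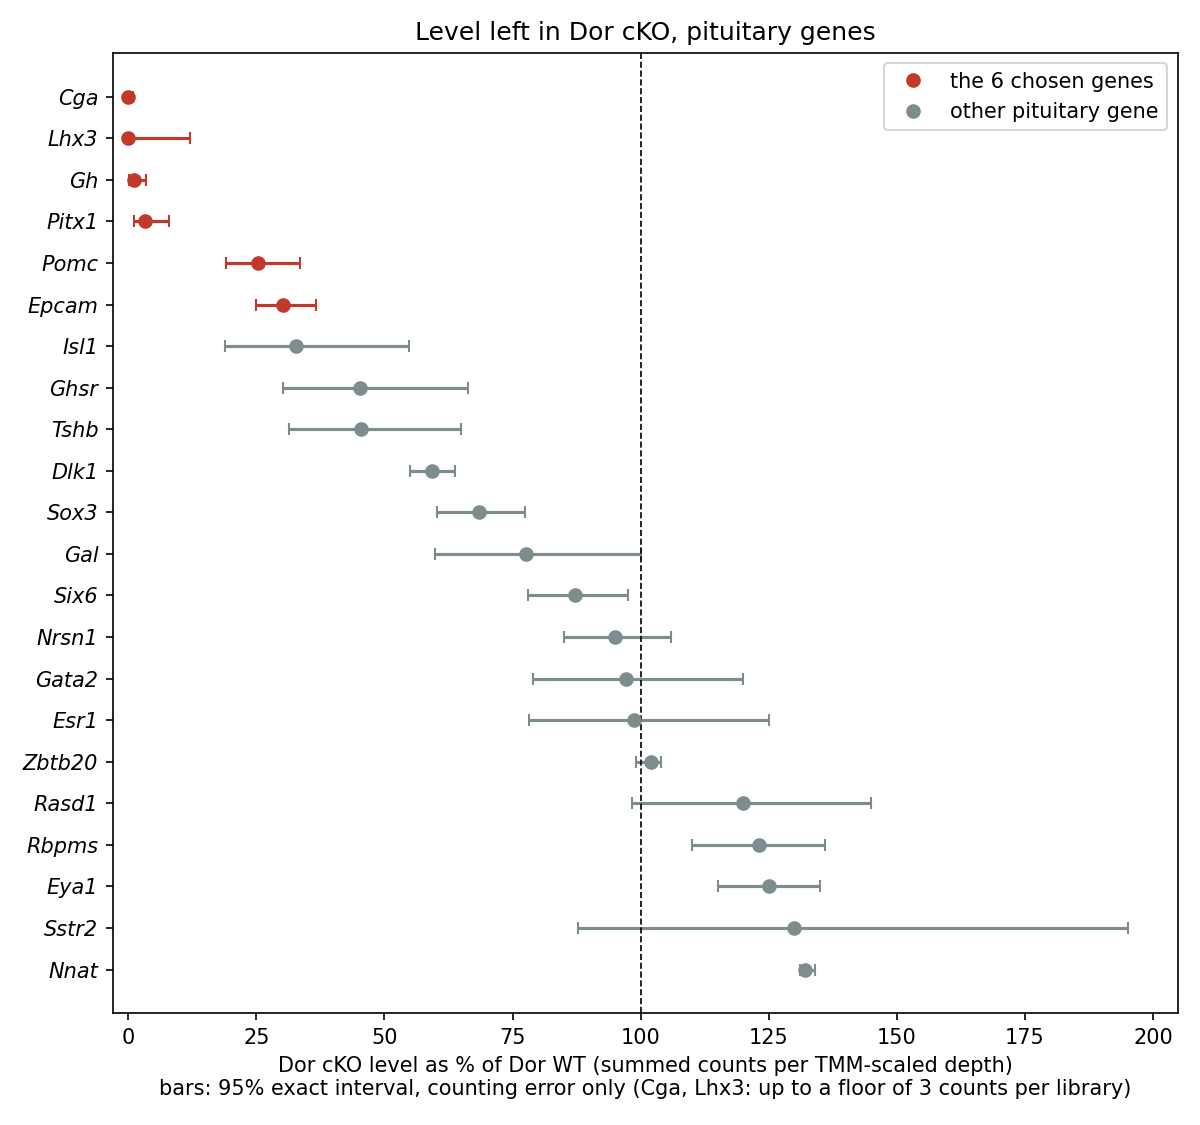
Level of pituitary genes in Dor cKO as a percent of the Dor WT level (horizontal axis, summed counts per TMM-scaled depth), for the 6 chosen genes (red) and other reported pituitary genes at or above 1 TPM in a group or called (grey). Bars are 95% exact intervals for counting error, or for Cga and Lhx3 the bound from a floor of 3 counts per library. The 6 chosen genes lie at 30.3% or less, and the other genes spread on both sides of the dashed line at 100%.

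Other genes known for the pituitary differed in both directions. Of 40 such genes, 24 were tested, and 5 were called lower (20.8% of those tested, against 13.4% of all genes) and 3 higher (14.3% of all genes were called higher). Their median log2 difference was -0.14, against -0.00 over all tested genes. Of the 40, 23 were under 1 TPM in all libraries and 3 were at 0 throughout. The genes were Tshb with 3 other hormone genes, 20 transcription factor genes and 16 genes of receptors and cell products. The 5 lower genes were Tshb, Isl1, Sox3, Ghsr and Dlk1, and of these the call of Dlk1 held under all alternatives tried. The count of lower genes was 2 under DESeq2 and 2 to 4 with 1 library left out. By limma on log2(TPM + 1), Tshb, Isl1, Sox3 and the higher gene Eya1 did not pass (adjusted p = 0.0919, 0.145, 0.15 and 0.292).

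Of the 20 other transcription factor genes, 11 were tested, with 2 lower and 2 higher, against 13.4% lower and 14.3% higher over all genes. The lineage factors Pou1f1 and Tbx19 were at the limit of counting. Pou1f1, needed for somatotrophs, lactotrophs and thyrotrophs, had 0 and 0 counts in the Dor cKO libraries, against 3 and 0 counts in the Dor WT libraries. Tbx19, the corticotroph and melanotroph factor, had 0 and 0 counts in the Dor cKO libraries, against 1 and 1 counts in the Dor WT libraries. Pax7, a melanotroph factor, had no reads in any library. These were named for their lineages, whatever their values. Isl1, a LIM homeodomain factor that neurons also use, fell, with 10 and 11 counts in the Dor cKO libraries, against 20 and 40 counts in the Dor WT libraries (edgeR quasi-likelihood test with Benjamini-Hochberg adjustment, log2 difference -1.58, SE 0.50, adjusted p = 0.018). The Isl1 call did not hold under DESeq2 (adjusted p = 0.0668). By edgeR it was lost when Dor WT replicate 2 was left out (log2 difference -1.18, adjusted p = 0.289), without Dor cKO replicate 1 (adjusted p = 0.128) and without Dor cKO replicate 2 (adjusted p = 0.101).

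Sox3, a factor of neural progenitors, hypothalamus and pituitary, fell, with 8.18 and 8.46 TPM in the Dor cKO libraries, against 10.30 and 13.99 TPM in the Dor WT libraries (edgeR with Benjamini-Hochberg adjustment, log2 difference -0.53, SE 0.14, adjusted p = 0.00356). Without Dor WT replicate 2, its log2 difference was -0.29 and its adjusted p was 0.207 by edgeR. Eya1, a transcriptional coactivator of placode and muscle development, rose. Eya1 had 14.6 and 15.6 TPM in the Dor cKO libraries, against 13.6 and 12.9 TPM in the Dor WT libraries (edgeR, log2 difference 0.32, adjusted p = 0.00158). Six6, Gata2, Rbpms and Zbtb20 did not pass, with log2 differences of -0.19, -0.05, 0.31 and 0.02.

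Of the 16 genes of receptors and cell products, 12 were tested, with 2 lower and 1 higher. Over all genes, 13.4% were called lower and 14.3% higher. Dlk1, an atypical Notch ligand of somatotrophs and of hypothalamic neurons, fell, with 24.7 and 25.5 TPM in the Dor cKO libraries, against 39.9 and 39.0 TPM in the Dor WT libraries (edgeR with Benjamini-Hochberg adjustment, log2 difference -0.75, SE 0.07, adjusted p = 1.26e-09). Ghsr, the ghrelin receptor, had 22 and 19 counts in the Dor cKO libraries, against 39 and 46 counts in the Dor WT libraries (edgeR, log2 difference -1.15, SE 0.39, adjusted p = 0.0255). Its call was lost under DESeq2 (adjusted p = 0.0788) and with any 1 library left out (edgeR, adjusted p 0.0813 to 0.147). Nnat, a small membrane proteolipid gene used widely in brain and pituitary, rose, with 2928 and 2957 TPM in the Dor cKO libraries, against 2298 and 2238 TPM in the Dor WT libraries (edgeR, log2 difference 0.40, SE 0.02, adjusted p = 1.99e-18). Gal, Nrsn1, Rasd1, Esr1 and Sstr2 did not pass, with log2 differences of -0.36, -0.08, 0.25, -0.03 and 0.40.

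Genes of the secretory granule, which endocrine cells and neurons share, were unequal. Of 14 tested, 8 were lower and 3 higher, with a median log2 difference of -0.39, against 13.4% lower and 14.3% higher over all genes. Scg2, a granin of the granule core, fell, with 30.8 and 28.4 TPM in the Dor cKO libraries, against 72.8 and 76.7 TPM in the Dor WT libraries (edgeR with Benjamini-Hochberg adjustment, log2 difference -1.31, adjusted p = 1.49e-17). The processing genes Cpe and Pam and the granin Scg3 rose by 0.13, 0.15 and 0.21 on the log2 scale (edgeR, adjusted p = 4.92e-06, 0.000386 and 1.76e-06). Chga, the defining granin of endocrine granules, was named after its values were seen, and had 15.03 and 15.75 TPM in the Dor cKO libraries, against 78.4 and 81.9 TPM in the Dor WT libraries.

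Simple epithelium genes, the list closest in kind to Epcam, held single genes called in either direction. Of 18 genes, 14 were tested, with 1 lower (7.14% of those tested) and 2 higher and a median log2 difference of 0.01. Over all genes, 13.4% were called lower and 14.3% higher, so nothing is read from these counts about the list. Cdh1, the epithelial cadherin, rose, with 152 and 152 TPM in the Dor cKO libraries, against 113 and 111 TPM in the Dor WT libraries (edgeR with Benjamini-Hochberg adjustment, log2 difference 0.45, SE 0.02, adjusted p = 2.92e-15). Krt19, a simple keratin, rose as well (edgeR, log2 difference 0.37, adjusted p = 0.00129). Krt18, another simple keratin, fell, with 32 and 21 counts in the Dor cKO libraries, against 64 and 51 counts in the Dor WT libraries (edgeR, log2 difference -1.23, SE 0.35, adjusted p = 0.00783). The Krt18 call was lost without Dor cKO replicate 2 and without Dor WT replicate 1 (edgeR, adjusted p = 0.114 and 0.149) and under limma (adjusted p = 0.11).

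Genes with a pattern most like that of the 6 were sought by a rule on counts, at least 30 in both libraries of a group and at most 3 in both of the other. In Dor WT, 5 genes met it, Cga, Gh, Pitx1, Odam and Cldn9, which is 0.0354% of the 14122 genes with the needed counts there. Of these, Cga, Gh and Pitx1 are among the 6 chosen for this pattern, so only Odam and Cldn9 were further genes. The rule was set with the outcome known, so its counts are a description. In Dor cKO, 1 gene of 14281 met it (0.007%), Alb, the serum albumin gene of liver. Lhx3 missed the rule with 23 counts in each Dor WT library. Odam, an enamel organ protein gene, had 2 and 3 counts in the Dor cKO libraries, against 154 and 182 counts in the Dor WT libraries. Cldn9, a tight junction gene, had 1 and 2 counts in the Dor cKO libraries, against 37 and 33 counts in the Dor WT libraries.

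RNA of tissue next to the nerve cannot be told apart from RNA of the nerve by these tables alone. Marker lists of other tissues, whether or not they adjoin the nerve, were summed in each library. Their part in the levels of the 6 genes was not tested. Over the 6 enamel genes the summed level was 5.21 to 5.30 TPM in Dor cKO and 52.3 to 53.3 TPM in Dor WT. Of these 6, 5 were tested, and Odam, Amtn and Klk4 passed the filter on low counts only through Dor WT, so their direction was fixed by it. Ambn, an enamel matrix gene, had 1.36 and 1.20 TPM in the Dor cKO libraries, against 23.21 and 21.97 TPM in the Dor WT libraries (edgeR with Benjamini-Hochberg adjustment, log2 difference -4.03, SE 0.17, adjusted p = 3.8e-17). Enam, the enamel gene that was not tested, had 5 and 2 counts in Dor cKO, against 0 and 1 counts in Dor WT. The enamel sum was the one whose ratio between the groups came closest to that of the 6 genes, of the lists drawn. Odam, which the count rule had found, held 12.82 and 13.65 TPM of that sum in Dor WT. The lists were chosen with earlier results known, so this likeness is a description and nothing is read from it.

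For the hypothalamus, which lies above the pituitary, the lists were mixed. Of 20 genes of ventral hypothalamus and tanycytes, 19 were tested, with 10 lower and 2 higher, against 13.4% lower and 14.3% higher over all genes. The 20 genes summed to 113 to 122 TPM in Dor cKO and 149 to 155 TPM in Dor WT, and the median log2 difference was -0.41. Single genes differed more than the sum. Among called genes of high CPM, Dio2, Col25a1 and Irs4 had log2 differences of -1.15, -1.51 and -1.94, and Ppp1r1b of 0.60 (edgeR). Scn7a, named after its values were seen, was at -2.93. Rax, a tanycyte and ventral hypothalamus factor, was named after its values were seen, and had 5 and 7 counts in the Dor cKO libraries, against 43 and 61 counts in the Dor WT libraries. It was the 1 gene of the 10 with neither Dor cKO library at the filter's cut of 0.475 CPM. Fndc3c1 (5 and 12 counts in Dor cKO, 205 and 248 in Dor WT) reached the cut in 1 Dor cKO library. So did Slc17a8 (3 and 11 counts in Dor cKO, 13 and 31 in Dor WT). The filter needed 2 libraries, so Fndc3c1 and Slc17a8 also passed through their reads in Dor WT. Of 16 neuropeptide genes, 11 were tested, with 2 lower and 1 higher, against 13.4% lower and 14.3% higher over all genes. The 16 genes summed to 1729 to 1805 TPM in Dor cKO and 1802 to 1918 TPM in Dor WT. Npy, which arcuate neurons next to the Pomc neurons make, fell by 2.30 on the log2 scale (edgeR with Benjamini-Hochberg adjustment, adjusted p = 8.65e-12). Agrp, made by the same neurons, had 0 and 4 counts in the Dor cKO libraries, against 31 and 59 counts in the Dor WT libraries, and passed the filter only through Dor WT. Oxt, oxytocin, rose, with 208 and 212 TPM in the Dor cKO libraries, against 167 and 171 TPM in the Dor WT libraries (edgeR, log2 difference 0.40, adjusted p = 5.76e-05). Avp, vasopressin, named after its values were seen as the most abundant gene of the list, had 1477 and 1545 TPM in the Dor cKO libraries, against 1519 and 1635 TPM in the Dor WT libraries, and did not pass the test (edgeR, log2 difference 0.01, adjusted p = 0.862).

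The sums of the remaining lists differed in both directions. Beside the counts of called genes below, 13.4% of all tested genes were called lower and 14.3% higher. Choroid plexus genes summed to 58.7 to 59.4 TPM in Dor cKO and 42.0 to 45.7 TPM in Dor WT, with 2 of 7 tested higher. Most of that sum was Kcnj13, at 42.6 and 43.7 TPM in Dor cKO, against 32.7 and 29.5 TPM in Dor WT. The choroid plexus marker Ttr had 1.68 and 2.21 TPM in Dor cKO, against 1.71 and 1.3 TPM in Dor WT, and did not pass. Retina genes summed to 15.2 to 18.1 TPM in Dor cKO and 15.6 to 15.9 TPM in Dor WT, with 4 of 15, among them Crx, at 0 throughout. Most of the retina sum was Rlbp1, at 9.93 and 10.74 TPM in Dor cKO, against 11.33 and 11.62 TPM in Dor WT. Skeletal muscle genes summed to 14.3 to 14.9 TPM in Dor cKO and 11.9 to 15.3 TPM in Dor WT, with 2 of 12, Myh4 and Myog, at 0 throughout. The largest part was Tnnt3, at 9.25 and 7.04 TPM in Dor cKO, against 5.04 and 8.17 TPM in Dor WT. Lens and cornea genes summed to 27.8 to 28.9 TPM in Dor cKO and 37.2 to 37.5 TPM in Dor WT. Of these, 3 of 5 tested were lower, of which Krt5 and Krt14 passed the filter only through Dor WT. Most of the lens and cornea sum was Bfsp2, at 23.67 and 21.38 TPM in Dor cKO, against 31.39 and 30.83 TPM in Dor WT. Cartilage and bone genes summed to 36.8 to 40.8 TPM in Dor cKO and 42.4 to 50.6 TPM in Dor WT, with 1 of 8 tested lower. Pigment cell genes summed to 4.19 to 4.21 TPM in Dor cKO and 4.48 to 5.63 TPM in Dor WT, with 3 of 10 tested and 1 lower. That gene, Lrat, had 0 and 5 counts in the Dor cKO libraries, against 95 and 110 counts in the Dor WT libraries. Lrat passed the filter only through Dor WT. Schwann cell and ganglion genes summed to 108 to 111 TPM in Dor cKO and 239 to 241 TPM in Dor WT, which followed Mal, a myelin gene that oligodendrocytes also use. Optic nerve glia genes summed to 19524 to 19558 TPM in Dor cKO and 27782 to 27972 TPM in Dor WT, with 6 of 11 lower and 4 higher.

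**Figure D4:**
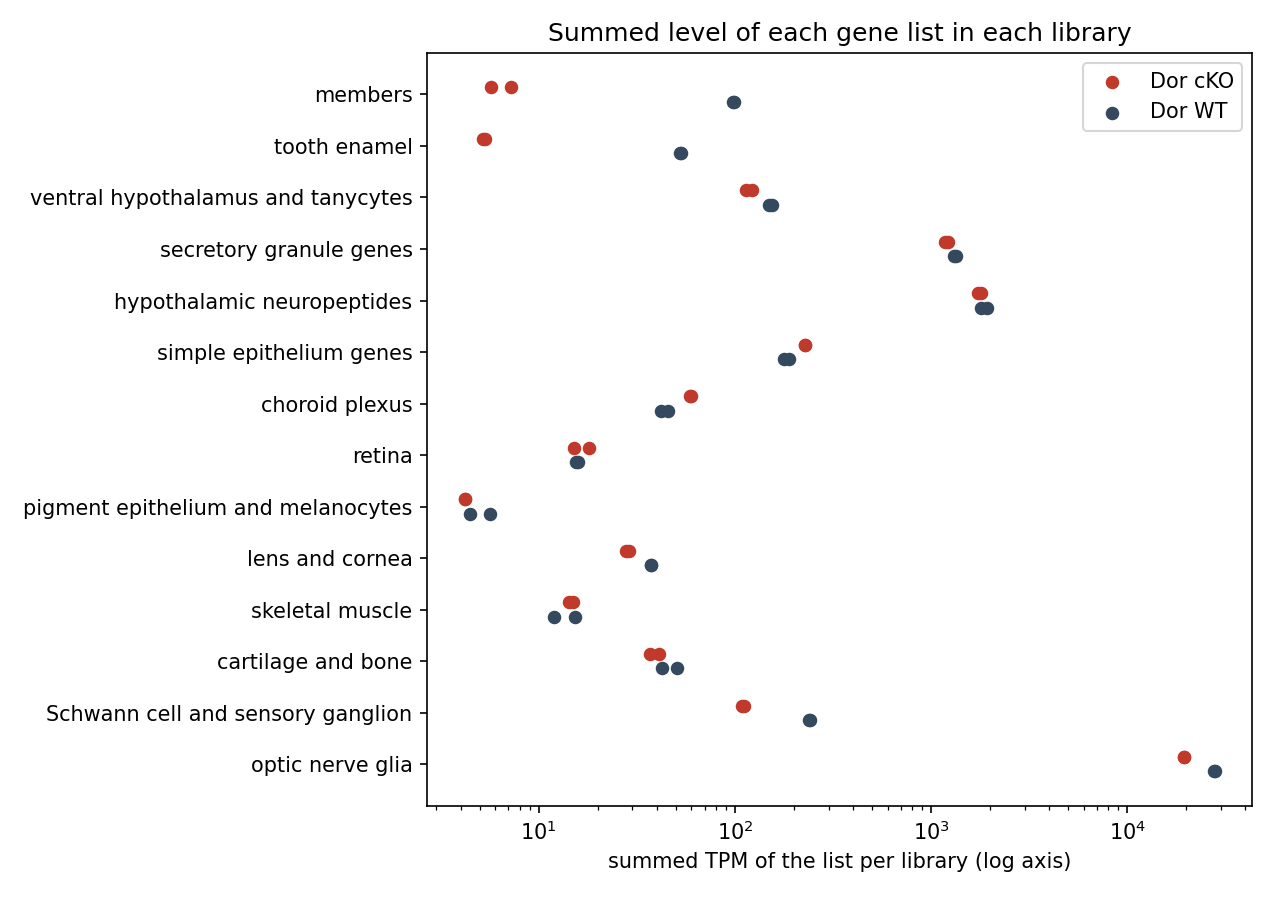
Summed TPM (horizontal log axis) of the 6 chosen genes (members, top row) and of 13 marker lists in each library of Dor cKO (red) and Dor WT (dark). The 6 chosen genes sum to 5.70 to 7.26 TPM in Dor cKO and 97.8 to 99.0 TPM in Dor WT, and the enamel genes to 5.21 to 5.30 TPM in Dor cKO and 52.3 to 53.3 TPM in Dor WT.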

How the data were processed

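Poly(A) RNA of mouse optic nerves was sequenced in 2 Dor cKO and 2 Dor WT libraries with a stranded kit, per the labels. Trimmomatic 0.36, RSEM 1.3.1, STAR 2.7.9a and the build GRCm38 are listed, per the submitters' processing notes, with no role given. Per the file headers, the deposited RSEM tables give an expected count, TPM, length and effective length for each gene, and whether counting used the strand is not given in the sources used here. Expected counts share reads between genes that fit them equally well, and TPM depends on the transcript length that RSEM assigns in each library.

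Symbols and coordinates came from GENCODE M21 (55141 of 55401 identifiers). Expected counts were rounded to whole numbers, filtered with filterByExpr (minimum count 10, minimum total count 15), scaled by TMM and tested with edgeR 4.0.16 (quasi-likelihood, robust, group only, R 4.3.3) with Benjamini-Hochberg adjustment over 16751 genes, called at 0.05. The script was tested on simulated data. Log2 differences are Dor cKO minus Dor WT. Intervals are 95% exact conditional binomial (scipy 1.17.1). DESeq2 1.42.0, limma 3.58.1 on log2(TPM + 1) and log2(TPM + 0.1) of genes reaching 1 TPM, other scalings and filters, and each library left out were the alternatives.

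The 6 genes and the 17 gene lists, 205 genes in all, were chosen with earlier results of these data known. Named genes were the 6, every other pituitary gene at a mean of 1 TPM in a group or called, for each other list up to 4 called genes of highest CPM or 2 abundant ones, and genes nearly confined to Dor WT. Fewer are named for lists that no result turned on. Some genes counted in the pituitary lists are not reported here by name.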

Additional observations from a re-analysis of the deposited data

How the results depend on the processing

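The count of lower genes over all genes was 2248 by edgeR, against 697 and 685 by limma on log2(TPM + 1) and log2(TPM + 0.1), and the count of higher genes was 2399, against 658 and 646. With 1 library left out these counts were 1670 to 2073 lower and 1782 to 2184 higher. Among pituitary genes other than the 6, 5 were lower by edgeR, against 2 by DESeq2, 1 and 1 by limma, and 2 to 4 with 1 library left out. Genes nearly confined to Dor WT numbered 5, against 10 at a minimum of 20 counts, 1 at a maximum of 0 counts, 10 at a maximum of 10 counts and 7 to 18 with 1 library left out. Genes nearly confined to Dor cKO numbered 1, against 3, 1 and 5 under the same changes and 5 to 6 with 1 library left out. The hypothalamic gene Tbx3, called lower by edgeR, stood at -0.71 on the log2 scale, against 0.39 and 0.49 by limma, which did not pass (adjusted p = 0.205 and 0.204). Tbx3 had 4.57 and 4.96 CPM in the Dor cKO libraries, against 7.83 and 7.73 CPM in the Dor WT libraries. In TPM, which depends on the assigned transcript length, it had 3.69 and 4.03 in Dor cKO, against 2.47 and 2.97 in Dor WT. Why its CPM and TPM differed in direction was not tested.

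The 6 genes were lower in Dor cKO by edgeR with other scalings, the replicate block, other prior counts and each library left out. For these 6 genes no values are given under DESeq2, limma or the other filters. They were chosen on this contrast in the same libraries, so this direction is a description and not a test. The fitted log2 value of Cga moved between -11.39, -9.39 and -7.40 as the prior count was raised, that of Lhx3 between -7.59, -5.61 and -3.70, and neither is a bound. Gh was at -6.34, against -9.97 without Dor cKO replicate 1 and -5.40 without Dor cKO replicate 2. With 1 library left out, Pomc ranged from -2.22 to -1.75 and Epcam from -1.94 to -1.53. Of 61 called genes on the lists, 38 held their call under every alternative that gave a value.

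With the replicate number as a block, 2409 genes were lower and 2562 higher, and 5 of the other pituitary genes were lower. Deviations of same-numbered libraries correlated at 0.0393 over 15222 genes. With 2 libraries per group, this value cannot show whether same-numbered libraries share a batch. Depth limits the lowest genes, since the 23 counts of Lhx3 in each Dor WT library gave a bound of 8.3-fold at the chosen floor of 3 counts.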

Other observations

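Alb, the serum albumin gene of liver, was the 1 gene that met the count rule in the other direction. It had 61 and 68 counts in the Dor cKO libraries, against 0 and 0 counts in the Dor WT libraries, or 2.34 and 2.64 TPM in the Dor cKO libraries, against 0 TPM in both Dor WT libraries. It was named after its values were seen.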
